A study of Rattus norvegicus with 28 samples.

Results

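The 10 genes described here are Mcm2, Mcm5, Mcm6, Cdc6, Orc3, E2f1, Rbl1, Ccne1, Skp2 and Cdc25a, a set of DNA replication and G1/S genes. They were matched to the count tables by the Ensembl identifier that the study's supplement pairs with each symbol, and are 10 of 32883 genes counted. All 10 passed the filter on low counts, as did 15112 genes in all. RNA-Seq was performed on both tibialis anterior muscles (a fast shin muscle of the hind limb) of 14 rats, 28 muscles in all, after in vivo electrotransfer, in which electric pulses drive an injected construct into muscle fibres. In the VDR-OE arm (7 rats, numbered 416 to 422) the right leg received a construct for mouse VDR, the vitamin D receptor, and the left leg the empty vector (VDR-OE control). In the VDR-KD arm (7 rats, 423 to 429) the right leg received an shRNA against Vdr and the left leg a scramble shRNA (VDR-KD control). All rats were given carprofen, an anti-inflammatory drug. Rats of the VDR-OE experiment were 8-week-old male Wistar animals, fasted overnight and killed 10 days after transfer. Only a share of fibres takes up a construct, the labels and the study's methods name different plasmid backbones for it, and the treated leg was always the right one, so side and construct cannot be told apart.

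Before a cell can copy its DNA, the origin recognition complex, of which Orc3 is a subunit, marks start sites, and Cdc6 helps to load the MCM helicase there, which contains Mcm2, Mcm5 and Mcm6. Entry into S phase is held back by RB family proteins such as Rbl1 (p107), which bind E2F transcription factors. Cyclin E (Ccne1) with its kinase relieves this block, Cdc25a is the phosphatase that activates cyclin-dependent kinases, and Skp2 is the ubiquitin ligase subunit that marks the inhibitor p27 for destruction. Many genes of the set are themselves E2F targets in cycling cells. Muscle fibres have left the cell cycle, whereas satellite cells, leukocytes, fibroblasts and endothelial cells of the same muscle can divide. In bulk RNA, fewer cells of a type and less RNA per cell cannot be told apart.

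The promoters are shown because E2F binding letters are a known feature of many DNA replication and G1/S genes. Promoter sequence was not used to choose the genes, but a choice by process is not independent of that feature. RefSeq promoter entries (GRCr8) matched 8 of the 10 genes, not Cdc6 and E2f1. The 250 bases before each start were searched on both strands for TTTCCCGC, TTTCGCGC, TTTGCCGC and TTTGGCGC, and 6 of the 8 held a match, as did 1.73% of 33469 rat promoters of the same length. The upstream 250 bases of Mcm5 and Mcm6, and 30 bases around the match in the other genes, read 5′ to 3′ on the gene's strand as follows, with E2F matches in capitals.
Mcm5, chr19:13488563-13488812, plus strand: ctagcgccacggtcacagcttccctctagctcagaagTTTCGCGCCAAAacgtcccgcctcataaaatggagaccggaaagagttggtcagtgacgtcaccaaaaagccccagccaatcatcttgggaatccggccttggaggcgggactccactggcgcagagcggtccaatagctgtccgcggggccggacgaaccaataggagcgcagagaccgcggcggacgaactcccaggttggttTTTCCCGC
Mcm6, chr13:42404353-42404602, minus strand: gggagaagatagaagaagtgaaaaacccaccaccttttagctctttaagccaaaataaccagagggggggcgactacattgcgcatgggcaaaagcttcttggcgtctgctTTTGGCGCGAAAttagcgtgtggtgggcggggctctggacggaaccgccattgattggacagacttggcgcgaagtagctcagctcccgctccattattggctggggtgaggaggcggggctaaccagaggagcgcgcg
Mcm2, chr4:122918095-122918124, minus strand: ggtcacgtgacccggtTTTCGCGCGAAAac
Rbl1, chr3:166289377-166289406, minus strand: caagtaggcgatTTTCGCGCgctttgtcgc
Orc3, chr5:53977871-53977900, minus strand: ccatgcctcctTTTCCCGCaagccccgcct
Cdc25a, chr8:118742801-118742830, plus strand: ggtgagttccgTTTGGCGCcaactagggaa

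In Mcm2, Mcm5 and Mcm6 a match on one strand overlapped a match on the other, which gives the 12-base runs of capitals. Matches began 14 bases before the start in Mcm2, 213 and 8 bases before it in Mcm5, 139 in Mcm6, 18 in Rbl1, 95 in Orc3 and 236 in Cdc25a. Ccne1 and Skp2 held none of these letters in the window. The NF-Y letters CCAAT, which did not overlap the E2F matches, were found in Mcm5 (3 times), Mcm6 (2 times) and Cdc25a (once), against 34.0% of all promoters. TTTGAA, the cell cycle homology letters, was found in Mcm2, against 16.2% of all promoters. The E2F letters were found in Orc3 and Cdc25a as well as in the MCM genes, whose RNA levels, given next, went the other way. A match is a description of sequence and was not tested as a binding site.

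Total counts per muscle ranged from 36684220 to 46312167. Normalised Vdr was 4.25 ± 1.57 CPM (SD, n = 7) in empty-vector legs and 2410 ± 2040 CPM (n = 7) in VDR-OE legs, where CPM are a gene's counts scaled to a common library total and by trimmed mean of M-values (TMM) factors. The fitted difference was 8.53 ± 1.26 (log2, SE; adjusted p = 0.0143, edgeR's quasi-likelihood test). In rat 419, however, the leg labelled VDR-OE held 5.45 CPM of Vdr against 5.75 CPM in its control leg. In the other arm Vdr was 4.15 ± 2.47 CPM in scramble legs and 3.25 ± 1.64 CPM in legs labelled VDR-KD, a difference of -0.26 ± 0.848 (log2, SE; adjusted p = 0.897, edgeR's quasi-likelihood test), so a fall of Vdr was not detectable there. No gene on the lists of skeletal muscle markers (12 genes) or satellite cell and regenerating fibre markers (14 genes) had a symbol in the sources used here, so the tissue label was not checked. Symbols come from the study's supplement, which lists genes by their p-value in the VDR-OE comparison. The 10 genes therefore carry names because of that comparison, and their values in it are given as a description and not as independent evidence.

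The comparison of VDR-OE with empty-vector legs asked how the receptor changes transcription in muscle. In it, 8 of the 10 genes had higher fitted levels in VDR-OE legs, by 0.46 (Ccne1) to 1.24 (Mcm5) on the log2 scale, and Orc3 and Cdc25a had lower ones. None passed an adjusted p of 0.05 in the quasi-likelihood test of all 28 muscles with the rat as a block (adjusted p from 0.0952 to 0.194), against 229 of 15112 genes (1.52%). At an unadjusted p under 0.05 there were 10 of 10, against 21.2% of all genes, from which nothing is read because this comparison gave the genes their names. The likelihood ratio test on the 14 muscles of the arm alone is nearer to the study's own method. By it all 10 passed (8 higher, 2 lower), against 2262 of 14526 genes. By DESeq2 4 of the 10 did, against 1214 of 15112 genes. Nothing is read from these counts either, for the same reason.

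**Figure D1:**
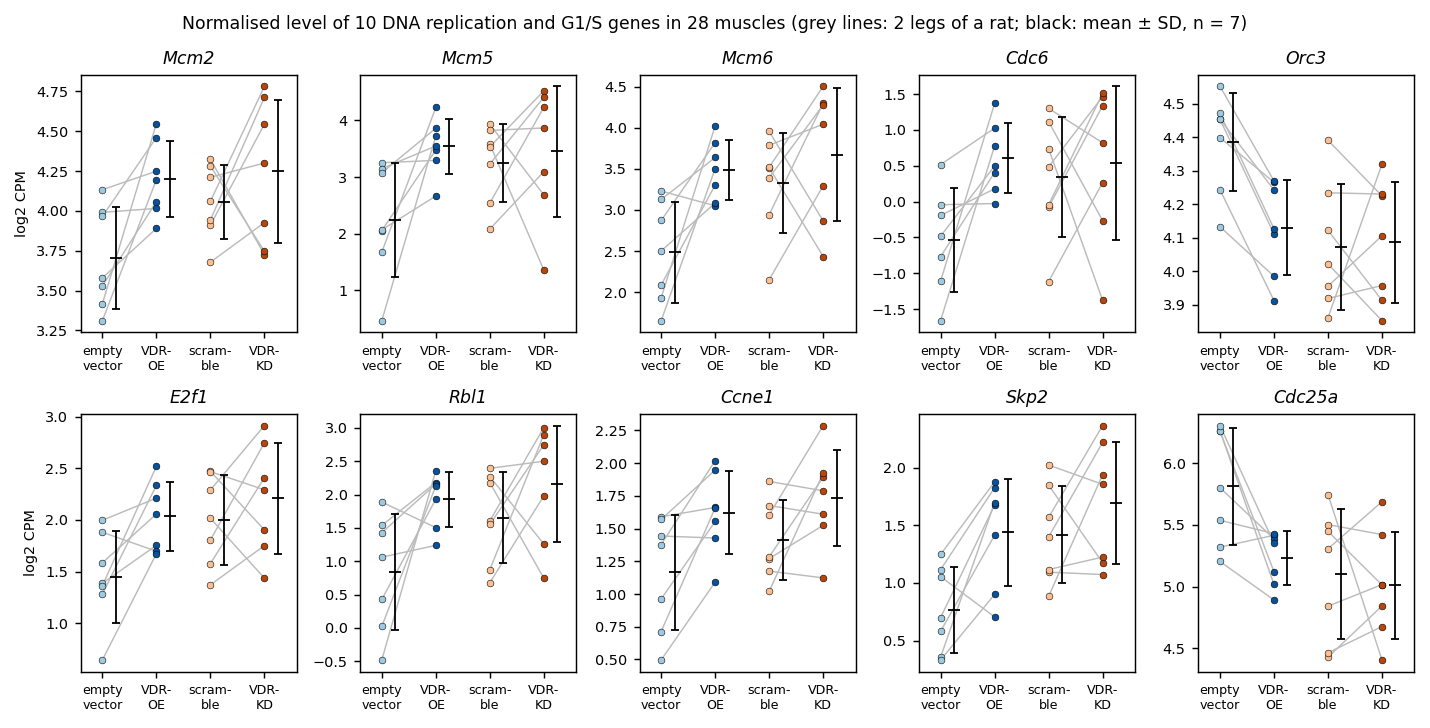
Each panel plots one gene's normalised level (log2 CPM) in the 28 muscles by group, with grey lines joining both legs of a rat and black bars giving the mean ± SD (n = 7). For 8 genes the empty-vector legs have the lowest mean of the 4 groups, and for Orc3 and Cdc25a the highest. The comparison that gave the genes their names uses the empty-vector legs.

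Among the MCM helicase subunits, Mcm5 varied most. It ranged from 1.37 to 9.53 CPM (median 4.18) in empty-vector legs and from 6.33 to 18.7 CPM (median 11.7) in VDR-OE legs. In scramble legs it ranged from 4.22 to 15.2 CPM (median 11.6) and in legs labelled VDR-KD from 2.55 to 23.0 CPM (median 14.6). The empty-vector legs fell apart into rats 416, 418 and 420, at 8.42 CPM or above, and the other 4 rats, at 4.18 CPM or below. The legs labelled VDR-KD held both the highest level (rat 426) and, after empty-vector rat 422, the lowest (rat 423). The fitted difference was 1.24 ± 0.468 (log2, SE) for VDR-OE against empty vector and 0.27 ± 0.474 for VDR-KD against scramble (adjusted p = 0.804).

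Mcm6 ranged from 3.13 to 9.37 CPM (median 5.65) in empty-vector, 8.27 to 16.3 CPM (median 11.3) in VDR-OE, 4.43 to 15.5 CPM (median 11.4) in scramble and 5.39 to 22.7 CPM (median 16.5) in VDR-KD legs. Fitted differences were 1.0 ± 0.327 in the VDR-OE arm and 0.37 ± 0.329 in the VDR-KD arm (adjusted p = 0.655). For Mcm6 the VDR-OE legs overlapped the empty-vector legs only through rats 416 and 419 on the treated side and rats 416 and 418 on the control side. Mcm2 moved over a narrower range, from 9.91 to 17.5 CPM (median 11.9) in empty-vector, 14.8 to 23.4 CPM (median 18.3) in VDR-OE, 12.8 to 20.01 CPM (median 16.7) in scramble and 13.2 to 27.5 CPM (median 19.7) in VDR-KD legs. Its fitted differences were 0.50 ± 0.176 and 0.19 ± 0.177 (adjusted p = 0.659 for the latter). All groups overlapped for Mcm2, and its 2 highest levels were in the legs labelled VDR-KD of rats 426 and 427.

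Of the origin and loading factors, Cdc6 was counted least, with 10 reads in its lowest muscle. Its level ranged from 0.304 to 1.42 CPM (median 0.703) in empty-vector, 0.969 to 2.57 CPM (median 1.40) in VDR-OE, 0.449 to 2.45 CPM (median 1.39) in scramble and 0.373 to 2.84 CPM (median 1.75) in VDR-KD legs. Fitted differences were 1.10 ± 0.452 and 0.24 ± 0.46 (adjusted p = 0.821 in the VDR-KD arm). Orc3 went the other way and was the steadiest of the set, at 17.5 to 23.4 CPM (median 21.9) in empty-vector, 15.1 to 19.3 CPM (median 17.5) in VDR-OE, 14.5 to 21.0 CPM (median 16.2) in scramble and 14.4 to 19.96 CPM (median 17.2) in VDR-KD legs. The difference was -0.26 ± 0.077 in the VDR-OE arm, lower in 7 of 7 rats (5 of 7 on library size alone), and 0.01 ± 0.0772 in the VDR-KD arm (adjusted p = 0.944), higher in 3 of 7.

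For the RB-E2F pair, Rbl1 ranged from 0.704 to 3.69 CPM (median 2.08) in empty-vector, 2.35 to 5.12 CPM (median 4.37) in VDR-OE, 1.59 to 5.25 CPM (median 3.03) in scramble and 1.66 to 8.03 CPM (median 5.65) in VDR-KD legs. Its fitted differences were 1.05 ± 0.44 and 0.54 ± 0.442 (adjusted p = 0.641 in the VDR-KD arm), the latter being the highest estimate of the 10 genes in that arm. The identifier taken as E2f1 ranged from 1.55 to 3.98 CPM (median 2.60), 3.18 to 5.72 CPM (median 4.15), 2.58 to 5.53 CPM (median 4.03) and 2.69 to 7.53 CPM (median 4.89) in the same order of groups. Differences were 0.59 ± 0.213 and 0.21 ± 0.212 (adjusted p = 0.675 in the VDR-KD arm). The values of E2f1 are uncertain, because the supplement pairs this identifier with the Entrez number that RefSeq gives to Necab3, a neighbour of E2f1.

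Among the regulators of cyclin-dependent kinases, Ccne1 ranged from 1.40 to 3.0 CPM (median 2.59) in empty-vector, 2.12 to 4.04 CPM (median 3.14) in VDR-OE, 2.02 to 3.62 CPM (median 2.42) in scramble and 2.17 to 4.87 CPM (median 3.44) in VDR-KD legs. Its fitted differences were 0.46 ± 0.15 and 0.32 ± 0.149, and in the VDR-KD arm Ccne1 was the 1 gene of 10 with an unadjusted p under 0.05 (adjusted p = 0.632). Skp2 ranged from 1.25 to 2.36 CPM (median 1.61), 1.62 to 3.66 CPM (median 3.18), 1.83 to 4.05 CPM (median 2.63) and 2.09 to 5.14 CPM (median 3.61), with differences of 0.68 ± 0.216 and 0.28 ± 0.213 (adjusted p = 0.637 in the VDR-KD arm). Cdc25a, in contrast, ranged from 36.9 to 79.1 CPM (median 55.8) in empty-vector, 29.7 to 43.1 CPM (median 40.8) in VDR-OE, 21.5 to 53.7 CPM (median 39.6) in scramble and 21.2 to 51.6 CPM (median 32.3) in VDR-KD legs. Its 3 highest levels were in the empty-vector legs of rats 416, 420 and 421. The difference was -0.58 ± 0.203 in the VDR-OE arm and -0.09 ± 0.203 in the VDR-KD arm (adjusted p = 0.857), where it turned to 0.148 on library size alone and to 0.132 without rat 429.

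**Figure D2:**
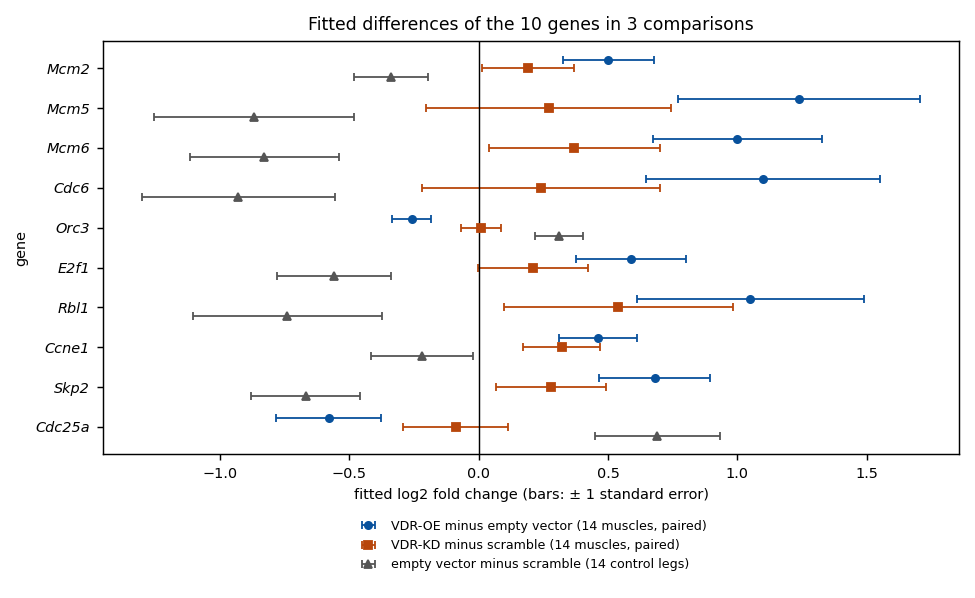
Points give each gene's fitted log2 fold change, with bars of ± 1 standard error, for VDR-OE minus empty vector (circles), VDR-KD minus scramble (squares) and empty-vector minus scramble control legs (triangles). The 8 genes to the right of 0 in the VDR-OE comparison lie to the left of 0 in the comparison of control legs, which shares the empty-vector legs with it.

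In the VDR-KD arm, which played no part in naming the genes, 9 of the 10 had higher fitted levels in the treated leg, against 50.6% of all genes. The median of the 10 was 0.26 on the log2 scale, against 0.00 over all genes tested. Among the 9 is Orc3, at 0.01 and higher in 3 of 7 rats. The within-rat ratios of Mcm2, Mcm5, Mcm6, Cdc6, E2f1 and Rbl1 moved together in these rats (pairwise Pearson's r from 0.93 to 0.99). The 9 are therefore not independent observations. None of the 10 passed an adjusted p of 0.05 with edgeR's quasi-likelihood test, as none of 15112 genes did (0%), and none passed by the likelihood ratio test. DESeq2 gave none of the 10 an adjusted p in this arm, so it could not call them. At an unadjusted p under 0.05 there was 1 of 10, against 6.9% of all genes. That share rested on single rats: it was 3.12% without rat 427, 3.6% without rat 424, 3.83% without rat 426, 4.52% without rat 428, 20.8% without rat 425 and 27.0% without rat 423, with 0 or 1 of the 10 genes each time. The estimates did too, ranging when a rat was left out from 0.027 to 0.637 for Mcm5 (without rats 424 and 423), 0.01 to 0.586 for Cdc6 (427 and 423), 0.212 to 0.616 for Mcm6 (424 and 425) and 0.295 to 0.855 for Rbl1 (424 and 423). Within-rat ratios of single genes gave two-sided exact sign-flip permutation p from 0.125 (Ccne1) to 0.906 (Orc3) and adjusted p from 0.227 to 0.906 over 20 tests (10 genes in 2 arms). On library size alone, the median of all genes shifted by 0.244 in this arm, and the 10 estimates, from 0.148 to 0.812, then all lay above 0.

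The difference between the leg effects of the arms (VDR-OE minus VDR-KD) was tested in the same fit, and no member passed an adjusted p of 0.05 (adjusted p from 0.6 to 0.993), as no gene of 15112 did (0%). Estimates for the 8 genes that were higher in VDR-OE legs lay between 0.13 ± 0.211 (Ccne1) and 0.97 ± 0.663 (Mcm5). Orc3, at -0.27 ± 0.109, was the 1 gene of 10 with an unadjusted p under 0.05 (0.026, adjusted p = 0.6), against 7.27% of all genes. The difference contains the VDR-OE effect that gave the genes their names, so nothing is read from that count. By the likelihood ratio test and DESeq2 no member passed either. With standard errors of 0.109 to 0.663, the data do not show whether the genes responded differently in the arms.

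The control legs of both arms were compared with each other to see where each baseline lay. Empty-vector legs were lower than scramble legs by an estimated -0.93 ± 0.373 for Cdc6, -0.87 ± 0.387 for Mcm5, -0.83 ± 0.288 for Mcm6 and -0.74 ± 0.367 for Rbl1, and higher by 0.31 ± 0.0929 for Orc3 and 0.69 ± 0.241 for Cdc25a. None of the 10 passed an adjusted p of 0.05 (0.107 to 0.501), against 4 of 14458 genes (0.0277%). DESeq2 called 2 of the 10 (Orc3 higher, Skp2 lower), against 1028 of 14458 genes. At an unadjusted p under 0.05 there were 8 of 10, all but Rbl1 and Ccne1, against 23.3% of all genes. This comparison shares the empty-vector legs with the VDR-OE comparison, so the opposite signs of both are not independent. Nothing is read from these counts either, because the VDR-OE comparison gave the genes their names. Construct and set of rats cannot be told apart between the control legs.

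In the order of group means, 8 genes ran from empty-vector through scramble and VDR-OE to VDR-KD legs. Only the step from the empty-vector group to its neighbour exceeded the larger SD of the pair, in Mcm2, Mcm5, Mcm6, Orc3, E2f1, Skp2 and Cdc25a. For Mcm5 that step was 4.67 CPM against an SD of 4.12 CPM, and for Cdc25a it was 20.9 CPM against 18.5 CPM. Cdc6, Rbl1 and Ccne1 showed no step above their SD, and neighbouring groups overlapped for every gene. The means of scramble, VDR-OE and VDR-KD legs lay within the larger SD of each other for all 10 genes. Nothing is read from this order, because the comparison that gave the genes their names uses the empty-vector legs.

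Within single rats the genes moved in both arms. Mcm2, Mcm5 and Cdc6 had more RNA on the VDR-OE side in 7 of 7 rats (6 of 7 on library size alone, where rat 416 turned), with log2 ratios of Mcm5 from 0.04 in rat 416 to 3.26 in rat 422. Mcm6, E2f1, Rbl1, Ccne1 and Skp2 were higher in 6 of 7, and Cdc25a was lower in 6 of 7. On library size alone these counts were 6 of 7 for Mcm6, Rbl1, Ccne1 and Skp2, 7 of 7 for E2f1 and 4 of 7 for Cdc25a. Rats 421 and 422 had the highest ratios of Mcm5, Mcm6, Cdc6 and Rbl1, at 1.85 or above. In the VDR-KD arm Mcm5 was lower in the treated leg of rats 423 (-2.22) and 425 (-1.24) and higher in the other 5, by 0.04 to 1.69. Of the 10 genes, 1 was higher in the treated leg of rat 423 and 2 in that of rat 425, against 8 in rat 424, 9 in rat 426 and 10 in rat 427.

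**Figure D3:**
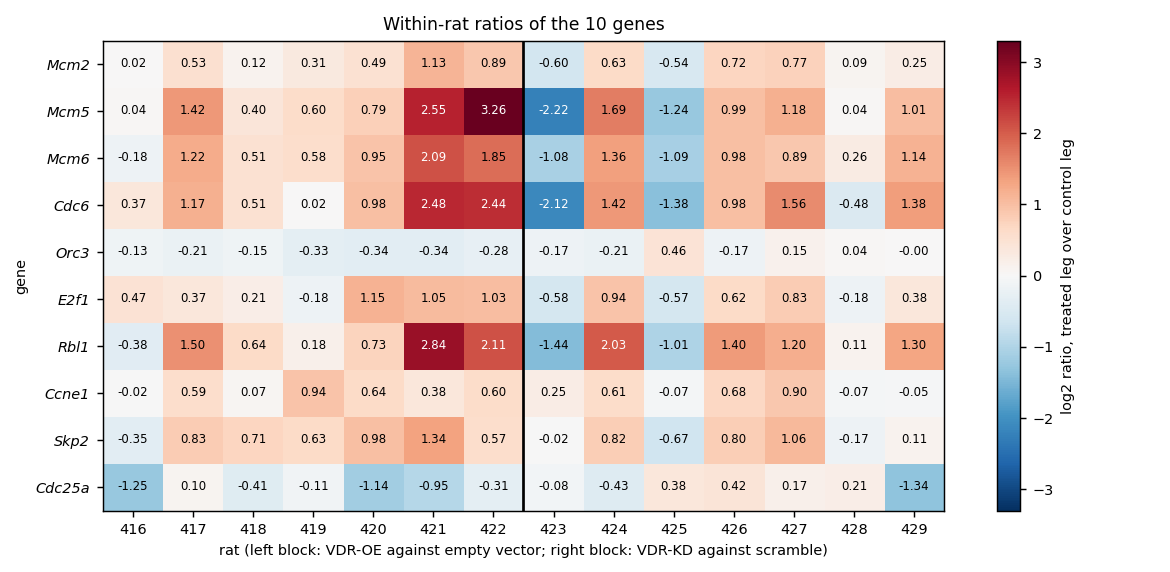
Each cell gives the log2 ratio of treated over control leg for one gene (row) in one rat (column), red for higher and blue for lower in the treated leg. Rats 421 and 422 hold the 2 highest ratios of Mcm2, Mcm5, Mcm6, Cdc6 and Rbl1, and in rats 423 and 425 these 5 genes and E2f1 are blue.

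Vdr and the 10 genes did not move together in every rat. Rat 416 had a Vdr log2 ratio of 10.02 and 4 of 10 genes higher in the VDR-OE leg, whereas rat 419, with a Vdr ratio of -0.08, had 7 of 10 higher. On library size alone these counts were 1 of 10 and 9 of 10. Without rat 419 the VDR-OE estimates were 1.359 for Mcm5, 1.069 for Mcm6, 1.292 for Cdc6 and -0.663 for Cdc25a, no gene of the set passed, and 64 genes were called in place of 229.

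Over the 14 rats, the within-rat ratios of 6 genes moved together. Mcm6 and Rbl1 were most alike (Pearson's r = 0.98, Spearman's rho = 0.98), as were Mcm5 and Cdc6 (r = 0.96, rho = 0.95). Over the 15 pairs among Mcm2, Mcm5, Mcm6, Cdc6, E2f1 and Rbl1, a group picked out after the values were seen, r ranged from 0.59 to 0.98 in the 7 VDR-OE rats and from 0.93 to 0.99 in the 7 VDR-KD rats. Skp2 was most like Mcm2 (r = 0.83, with 0.69 in VDR-OE rats and 0.89 in VDR-KD rats) and Ccne1 most like Skp2 (r = 0.73, with 0.43 in VDR-OE rats and 0.92 in VDR-KD rats). Orc3 ran against the group of 6, from r = -0.44 with Cdc6 to -0.57 with Mcm6, and against Skp2 (r = -0.62). Cdc25a was most like Orc3 (r = 0.41 over all rats, 0.02 in VDR-OE and 0.29 in VDR-KD rats), so that likeness did not hold within the VDR-OE arm. These values are descriptions over legs that share libraries and normalisation factors.

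**Figure D4:**
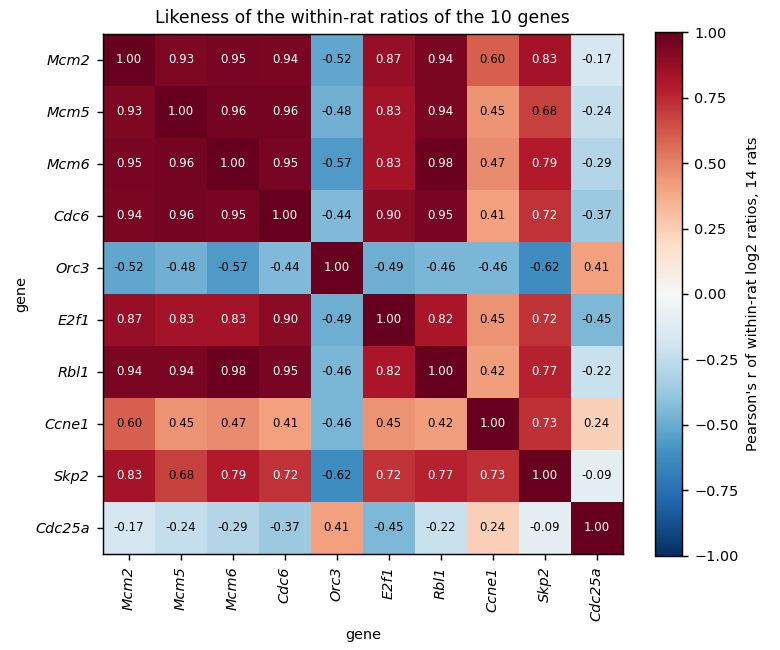
The matrix gives Pearson's r of within-rat log2 ratios between each pair of the 10 genes over 14 rats, red for positive and blue for negative. Mcm2, Mcm5, Mcm6, Cdc6, E2f1 and Rbl1 form a block at 0.82 or above, and the row of Orc3 is negative except with Cdc25a.

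Over all 28 muscles Mcm5 spanned 16.8-fold between its lowest and highest level, Rbl1 11.4-fold, Cdc6 9.33-fold and Orc3 1.62-fold. On the log2 scale their SDs were 0.98, 0.86, 0.89 and 0.20, against a median of 0.34 over all genes tested. The genes outside the set whose level was most like the mean of the 10 over the 28 muscles were Lima1 (r = 0.977), LOC100359539 (0.976), Mms22l (0.974), Atad2 (0.972) and Ccnf (0.97). Mms22l acts in repair of stalled replication forks, and Ccnf is cyclin F. Of 15102 genes compared, 551 had an r over 0.9.

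Other genes of the same processes were taken from fixed lists, of which only those with a symbol could be read, so their VDR-OE values are chosen in the same way as those of the 10. The same holds for the lists of mitosis genes and of cell type markers below. Over all genes tested, 49.3% had higher fitted levels in VDR-OE legs and 50.6% in VDR-KD legs. For the pre-replication complex and helicase 7 of 28 list genes had one (Cdt1, Mcm10, Gins1, Gins2, Ticrr, Clspn and Timeless). None passed in any comparison, and the median log2 difference was 0.89 in the VDR-OE arm and 0.31 in the VDR-KD arm (all 7 higher, 0 of 7 at an unadjusted p under 0.05). Cdt1, which loads the helicase together with Cdc6, differed by 0.45 ± 0.155 and 0.21 ± 0.155 in the arms. Gins1 and Gins2, subunits of the GINS complex that activates the helicase, differed by 0.53 ± 0.19 and 0.89 ± 0.326 in the VDR-OE arm and by 0.20 ± 0.19 and 0.29 ± 0.318 in the VDR-KD arm. Timeless, a fork protection factor, had the values 0.84 ± 0.352 and 0.38 ± 0.354.

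For the replication fork and nucleotide supply, 9 of 35 list genes had a symbol and none passed in any comparison. Their median was 0.62 in the VDR-OE arm and 0.30 in the VDR-KD arm, with 7 of 9 higher in each. Tk1 and Tyms, which make thymidine nucleotides, differed by 0.73 ± 0.182 (adjusted p = 0.0588) and 0.58 ± 0.17 (adjusted p = 0.0892) in VDR-OE legs, and by 0.15 ± 0.181 and 0.30 ± 0.169 in the VDR-KD arm. Chaf1b, a chromatin assembly factor subunit, had the highest VDR-KD estimate of the list, 0.72 ± 0.355 (adjusted p = 0.632).

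For G1/S control, 7 of 39 list genes had a symbol and none passed. Medians were 0.39 in the VDR-OE arm (5 higher, 2 lower) and 0.25 in the VDR-KD arm (6 higher, 1 lower). Cdkn2c, an inhibitor of the cyclin D kinases, and Ccnd3, cyclin D3, were at 0.39 ± 0.105 and 0.36 ± 0.111 in VDR-OE legs, higher in 7 of 7 rats (6 of 7 on library size alone), and at 0.10 ± 0.105 and 0.08 ± 0.111 in the VDR-KD arm. Myc, a growth-promoting transcription factor, had less RNA on the VDR-OE side in 7 of 7 rats, 6 of 7 on library size alone (-0.77 ± 0.205, adjusted p = 0.0688) and was at 0.25 ± 0.202 in the VDR-KD arm. Fbxo5, the inhibitor of the anaphase-promoting complex, was at 0.52 ± 0.237 in the VDR-KD arm, and Tfdp2, a partner of E2F proteins, at -0.37 ± 0.176 (adjusted p = 0.632 for both). Among mitosis genes, 29 of 34 had a symbol and none passed, with medians of 0.84 and 0.26. All 29 had higher fitted levels in both arms, from 0.55 to 1.21 in VDR-OE legs and from 0.17 to 0.45 in VDR-KD legs. Of all genes, 49.3% and 50.6% did. In the VDR-KD arm 0 of 29 had an unadjusted p under 0.05 in edgeR's quasi-likelihood test. Their summed CPM was lower in the treated leg of rats 423, 425 and 428 (log2 ratios -0.6, -0.73 and -0.01). Examples of the mitosis genes are Tpx2, a spindle assembly factor, at 0.75 ± 0.184 (adjusted p = 0.0571), and Top2a, topoisomerase II alpha, at 1.01 ± 0.276 in VDR-OE legs. Cyclin B1 (Ccnb1), the kinesin Kif23, the checkpoint kinase Bub1b and the kinetochore protein Cenpf were at 1.01 ± 0.283, 0.81 ± 0.268, 0.73 ± 0.275 and 0.93 ± 0.239 there, and at 0.43 ± 0.276, 0.39 ± 0.265, 0.40 ± 0.272 and 0.28 ± 0.237 in the VDR-KD arm.

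Leukocyte markers moved with the genes in both arms. Of 22 leukocyte markers 7 had a symbol (Csf1r, Cd163, Mrc1, Cd74, Lyz2, Aif1 and Cd4), none was at 0 in any muscle, and none passed in any comparison. All 7 had higher fitted levels in treated legs, against 49.3% (VDR-OE arm) and 50.6% (VDR-KD arm) of all genes. Medians were 1.15 in the VDR-OE arm and 0.59 in the VDR-KD arm. In the VDR-KD arm 0 of 7 had an unadjusted p under 0.05 in edgeR's quasi-likelihood test. Their summed level ranged from 411 to 1460 CPM in empty-vector, 1000 to 2410 CPM in VDR-OE, 906 to 3190 CPM in scramble and 634 to 4060 CPM in VDR-KD legs. This sum was lower in the treated leg of rats 423 and 425 (log2 ratios -1.59 and -1.2). The leg with the higher sum was also the leg with more Mcm2 and Mcm5 in 14 of 14 rats, more Mcm6, Cdc6 and Rbl1 in 13, more E2f1 and Skp2 in 12, more Ccne1 in 10, more Cdc25a in 5 and more Orc3 in 3. In the 7 VDR-OE rats this agreement is not independent evidence, because that comparison gave both the markers and the 10 genes their names. In the 7 VDR-KD rats it held in 7 for Mcm2, Mcm5, Mcm6 and Rbl1 and in 6 for Cdc6, E2f1 and Skp2. For Ccne1 and Cdc25a it held there in 4 and for Orc3 in 3. In these VDR-KD rats the TMM factor and the number of genes with a count gave the same agreement for each of the 10 genes. The agreement is thus not particular to leukocyte markers, and it was not counted over all genes. The macrophage receptors Mrc1 and Cd163 were at 1.42 ± 0.39 and 1.41 ± 0.403 in VDR-OE legs and at 0.60 ± 0.396 and 0.59 ± 0.40 in the VDR-KD arm. Csf1r, the receptor that sustains macrophages, was at 1.14 ± 0.356 and 0.58 ± 0.362. The part of leukocytes in the levels of the 10 genes was not tested.

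**Figure D5:**
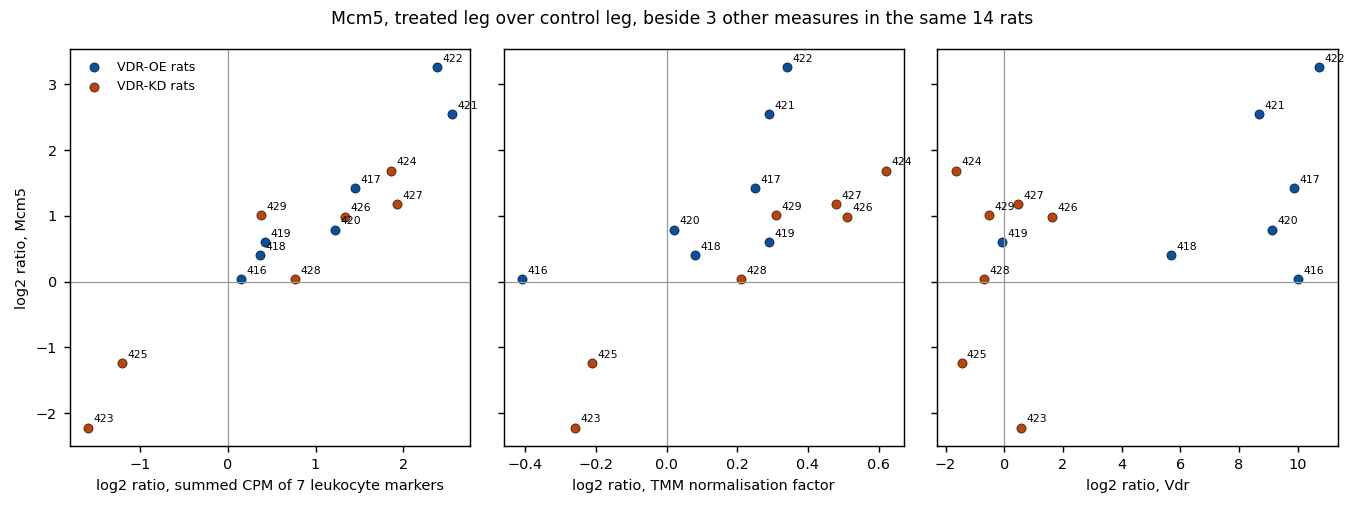
The log2 ratio of Mcm5 (treated over control leg) is plotted against that of the summed CPM of 7 leukocyte markers, of the TMM factor and of Vdr in the same 14 rats (blue VDR-OE, orange VDR-KD). Mcm5 and the leukocyte sum were higher in the same leg of 14 of 14 rats, Mcm5 and the TMM factor in 13, and Mcm5 and Vdr in 9. For the leukocyte sum, 7 of the 14 are VDR-OE rats, whose comparison gave the markers and Mcm5 their names.

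Of 13 fibroblast and endothelial markers 7 had a symbol (Pdgfra, Dcn, Lum, Col1a1, Col3a1, Postn and Pdgfrb, none at 0). None of the 7 is an endothelial marker, so endothelial cells were not covered. The 7 markers were higher in VDR-OE legs (median 0.83). Of them Dcn and Pdgfra, the proteoglycan decorin and a fibroblast receptor, rose by 0.64 ± 0.134 (adjusted p = 0.0348) and 0.98 ± 0.21 (adjusted p = 0.0358), 2 of 7 against 1.52% of all genes. Both calls were lost on library size alone and without rat 421, where no gene passed. The 7 markers could be read because of their p-value in this same comparison. Nothing is therefore read from the 2 of 7, nor from their agreement with Mcm5 in VDR-OE rats given below. Lum, the proteoglycan lumican, and Pdgfrb, a pericyte receptor, were at 0.94 ± 0.264 and 0.34 ± 0.0939 (adjusted p = 0.0817 and 0.0738). In the VDR-KD arm the median of these markers was 0.03. Their summed level ranged from 1570 to 5330 CPM in empty-vector, 2270 to 8760 CPM in VDR-OE, 2930 to 8930 CPM in scramble and 2670 to 9080 CPM in VDR-KD legs, and was higher in the same leg as Mcm5 in 7 of 7 VDR-OE rats but 4 of 7 VDR-KD rats. Composition of the libraries moved with most of the genes as well. TMM factors ranged from 0.736 to 1.44, the share of counts in the top 10 genes from 15.4% to 30.6%, and genes with a count from 17526 to 19086. Between the legs, neither total counts (p = 0.312 and 0.0625 in the VDR-OE and VDR-KD arms) nor the share of the top 10 genes (p = 0.328 and 0.0938) passed 0.05 in two-sided exact sign-flip permutation tests over 7 rats. The leg with the higher TMM factor had more Mcm6 and Rbl1 in 14 of 14 rats and more Mcm2, Mcm5 and Skp2 in 13. It had more Cdc6 in 12, more E2f1 and Ccne1 in 11, more Cdc25a in 6 and more Orc3 in 4. On library size alone the 8 genes remained higher in VDR-OE legs, by 0.581 (Ccne1) to 1.368 (Mcm5), and Orc3 and Cdc25a remained lower, at -0.133 and -0.454, while the median of all genes shifted by 0.118. The part of library composition in these results was not tested.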

How the data were processed

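RNA-Seq counts of 28 muscles were analysed. Per the labels, the authors deposited raw counts per gene for the rat genome, version 6.0 with Ensembl release 89, and the study's methods name adaptor trimming and Rsubread for alignment and counting. The Rsubread version, strand setting and treatment of multi-mapping reads are not given in the sources used here, so reads shared by near-identical genes may be split. The submitters' processing notes name bcl2fastq 2.17.1.14, FastQC 0.11.5 and edgeR 3.18.1.

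From the counts, genes were kept if 7 or more samples exceeded 0.244 CPM, the value of 10 counts (15112 genes, or 14458 for the control legs). They were fitted with edgeR 4.0.16 in R 4.3.3 with TMM factors, the rat as a block and a leg effect per arm, by the quasi-likelihood test, with Benjamini-Hochberg adjusted p over all genes and a threshold of 0.05. The study's methods point to the likelihood ratio test, which is an alternative here, since it leaves out the uncertainty of the estimated dispersion. Fitted log2 fold changes carry standard errors. Control legs were fitted without a block. Within-rat ratios used log2 CPM with a prior count of 0.5. With 7 rats the exact sign-flip test cannot give a p under 0.0156. Other alternatives were DESeq2 1.42.0, single-arm fits, no block, RLE factors, other filters, leaving out each rat and, added after seeing the data, library size alone. Scripts were tested on simulated data.

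Labels pair the legs by animal. Deviations from group means correlated between the legs of a rat at -0.19 to 0.539 (VDR-OE arm) and -0.548 to 0.278 (VDR-KD arm). No 2 muscles of a group agreed within sampling noise. Symbols were taken from the 1998 genes of the supplement (1930 tested), since the RefSeq table holds no Ensembl identifiers. Named were the 10 genes and Vdr, from each list the 3 genes of smallest p per arm (1 of them is not reported here), and the 5 genes most like the set. The genes and lists were chosen with earlier results of these data known.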

Additional observations from a re-analysis of the deposited data

Results flagged for a closer look

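Among the levels and within-rat ratios of the 10 genes, no muscle or rat stood apart from its group by Dixon's test at the 95% level, run on 60 sets of 7 values, and none of the 10 genes differed between the arms in the test of the difference itself at an adjusted p of 0.05. Vdr was not among these sets. The leg labelled VDR-OE of rat 419 held 5.45 CPM of Vdr, against 201 to 5940 CPM in the other 6 VDR-OE legs.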

How the results depend on the processing

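Directions of the 10 genes held under every alternative in the VDR-OE comparison, in the difference between the arms and between control legs. In the VDR-KD arm, Cdc25a turned to 0.148 (fit) and 0.142 (mean within-rat ratio) on library size alone and to 0.132 without rat 429 (range -0.168 to 0.132 when a rat was left out), and Orc3 to -0.06 without rat 425 (range -0.06 to 0.063). The cause was not tested. The number of genes of the set that passed in the VDR-OE comparison, 0 here, was 1 (Mcm6) by the likelihood ratio test, 2 (Mcm6 and Orc3) by the quasi-likelihood test on the arm alone, 10 by the likelihood ratio test on the arm alone, 4 (Mcm5, Mcm6, Orc3 and Skp2) by DESeq2, and 0 or 1 when a rat was left out (Orc3 without rat 425). Between control legs it was 2 by DESeq2 and 0 or 1 when a rat was left out (Mcm6 without rat 429). It was 0 under every alternative in the VDR-KD arm and in the difference between the arms. In the VDR-KD arm, however, DESeq2 gave none of the 10 genes an adjusted p and could not call them.

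Over all genes, the 229 calls of the VDR-OE comparison became 663 by the likelihood ratio test, 1037 by the quasi-likelihood and 2262 by the likelihood ratio test on the arm alone, 1214 by DESeq2, 410 with no replicate block, 124 with no filter and 0 on library size alone. They ranged from 0 (without rat 421) to 697 (without rat 425) when a rat was left out. DESeq2 called 25 genes in the VDR-KD arm. For the difference between the arms the counts were 18 by the likelihood ratio test, 44 by DESeq2, 11 with no replicate block, 1 with no filter, 1 with a filter needing 2 samples, and 0 or 1 (without rat 419) when a rat was left out. The 4 calls between control legs became 441, 1028 and 132 by the likelihood ratio test, DESeq2 and the fit of 4 groups over 28 samples, 12 with RLE factors, 7 with no filter, 12 with the 2-sample filter, 0 on library size alone, and 0 to 788 (without rat 429) when a rat was left out. The replicate block changed no call of the 10 genes. Cdc6 had 10 to 160 counts per muscle, so its ratios carry the most counting error of the set.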
